A study of Homo sapiens with 12 samples.

Results

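The human mitochondrial genome is a small circular DNA that encodes 13 proteins, all of them subunits of the machinery that burns nutrients with oxygen to make ATP. The genes described here are 10 of these 13, taken by their NCBI symbols from a table of 57756 features: ND1, ND2, ND4, ND5, ND6, COX1, COX2, COX3, CYTB and ATP6. Rows were matched to the members by symbol alone, and each member had 1 row in the table. The cells were A549, a human lung adenocarcinoma line, in 12 oligo-dT-based RNA libraries sequenced as read pairs. Control cells (6 libraries) had received a scrambled siRNA, and the others (6 libraries) an siRNA to SLC7A5, which imports large neutral amino acids. The study set out to find transcript changes tied to lipid metabolism. No time after transfection, siRNA sequence or statement on separate cultures is given in the sources used here, so the p-values cover the spread among these libraries alone, which may be technical.

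Mitochondrial DNA is read by its own RNA polymerase, POLRMT, from promoters on both strands into long transcripts that span many genes. Excision of the tRNAs between the genes releases the mRNAs, which are then stabilised by the LRPPRC and SLIRP proteins and given short poly(A) tails by MTPAP. One long transcript carries nearly all of the protein genes and both rRNAs, and these are called heavy-strand genes below. ND6 is the single protein gene on the transcript of the other promoter and is called the light-strand gene, and its mRNA is known to lack a long poly(A) tail. In most cultured cells, mitochondrial mRNAs are among the most abundant polyadenylated RNAs.

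The base composition of these mRNAs differs between the strands and their stop codons differ among the genes, so a few ends are shown, in the sense of the mRNA, from the transcripts of GENCODE release 29 (GRCh38). The first 30 bases follow, with the start codon in capitals.
ND6, chromosome M, 14149 to 14673, minus strand: ATGatgtatgctttgtttctgttgagtgtg
ND5, chromosome M, 12337 to 14148, plus strand: ATAaccatgcacactactataaccacccta
COX1, chromosome M, 5904 to 7445, plus strand: ATGttcgccgaccgttgactattctctaca

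The last 30 bases follow, with the letters of the stop codon that the DNA itself encodes in capitals.
ND6: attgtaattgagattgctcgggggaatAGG
COX1: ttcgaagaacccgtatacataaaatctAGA
ND5: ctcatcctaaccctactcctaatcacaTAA
ND1, chromosome M, 3307 to 4262, plus strand: tacaatctccagcattccccctcaaaccTA
CYTB, chromosome M, 14747 to 15887, plus strand: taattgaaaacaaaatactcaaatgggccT

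Of the 10 genes, 5 ended in a complete stop codon, 4 in T alone and 1, ND1, in TA. In these last 5, the poly(A) tail supplies the A residues that complete a UAA stop, a known feature of human mitochondrial mRNAs. ND6 ended in AGG and COX1 in AGA, at which human mitochondrial translation stops. The ND6 transcript was 35.6% G and 7% C. Over the 9 heavy-strand members the share of G lay between 9.5% and 16.2% and that of C between 30% and 36%. The strands thus differed in base composition, while their GC content was close, 42.7% in ND6 against 43% to 47.7% in the others. The remaining members lie at 4470 to 5511 (ND2), 7586 to 8269 (COX2), 8527 to 9207 (ATP6), 9207 to 9990 (COX3) and 10760 to 12137 (ND4) of chromosome M. In the annotation ATP6 shares 46 bases with ATP8 and 1 base with COX3, and ND4 shares 7 bases with ND4L, so reads in these overlaps are uncertain. No member is spliced.

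The libraries held 1896100 to 2109699 counts, and SLC7A5, the target of the siRNA, was not lower in those labelled knockdown. SLC7A5 stood at 27.97 ± 3.34 CPM (counts scaled to a library total of 1000000; SD, n = 6) in control and at 31.47 ± 5.59 CPM in the knockdown-labelled libraries. Its counts ranged from 45 to 65 in control, against 53 to 80 in the others. The log2 fold change in edgeR was 0.17 with a 95% interval of -0.08 to 0.41, and an exact two-sided permutation test of CPM over 924 regroupings gave p = 0.195. All directions below are therefore given for the knockdown-labelled libraries. The 15 markers of A549 and lung epithelium had a count in every library, with a median of 8.6 counts per kb of exon. So did all 6 leukocyte, 4 endothelial and 6 fibroblast markers and 3 of 4 liver markers, with medians of 9.8, 10.9, 7.4 and 8.7 counts per kb. The summed CPM of these lists in control and in the knockdown-labelled libraries lay at 289.1 to 322.3 and 285.3 to 326.9 for A549 and lung epithelium, and at 102.6 to 131.3 and 115.2 to 136.1 for leukocytes. They lay at 156.9 to 176.3 and 158.3 to 179.6 for endothelium, 191.2 to 203.8 and 189.5 to 219.5 for fibroblasts, and 43.5 to 54.3 and 44.3 to 66 for liver. Markers of other cell types were thus counted at levels per kb like those of A549 and lung epithelium. Given these values, and counts that follow annotated length in mitochondrial and nuclear genes alike (below), it is not settled that the table reports RNA levels of the labelled cells. Every level, share and fold change here is a statement on the deposited counts.

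Counts assigned to the members made up a very small share of each library. The 10 genes together held 148 to 171 counts in control and 139 to 178 in the knockdown-labelled libraries, or 1900 of all counts in the 12 libraries. That was 0.0081% ± 0.00042 of the library total in control and 0.00794% ± 0.00056 in the knockdown-labelled libraries (SD, n = 6 each). The exact 95% binomial intervals of the single libraries reached from 0.00612% to 0.0102%, for counting error only. With all 37 mitochondrial genes, rRNAs and tRNAs included, the share was 0.0116% to 0.0124%. The summed level of the members was 80.99 ± 4.16 CPM in control against 79.42 ± 5.6 CPM in the knockdown-labelled libraries, a difference of -1.57 CPM that was smaller than either SD. With single libraries left out it lay between -3.29 CPM (without knockdown-labelled replicate 1) and -0.21 CPM (without control replicate 5), and it was -0.24 CPM without knockdown-labelled replicate 6 and -0.62 CPM without knockdown-labelled replicate 3. It was -0.93 CPM without control replicate 1. In such bulk samples, the share of cells holding these RNAs and their amount per cell cannot be told apart.

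The ND genes encode the core membrane subunits of complex I, the NADH dehydrogenase that starts the respiratory chain and pumps protons, while its other core subunits are nuclear. ND5, the longest member and a proton-pumping subunit, had 22 to 38 counts in control (median 28) and 20 to 32 in the knockdown-labelled libraries (median 23.5). ND4, another pumping subunit, had 15 to 24 counts (median 18) and 17 to 27 counts (median 20.5). ND2, the third of the pumping subunits, had 10 to 25 counts (median 16) and 7 to 19 counts (median 15.5). The ranges overlapped broadly in each of them, and the highest ND5 count, 38, was in control replicate 5. ND1, which lies by the quinone site where complex I hands on its electrons, had 8 to 16 counts in control (median 13) and 13 to 18 counts in the knockdown-labelled libraries (median 14.5). For ND1, 3 control libraries lay below every knockdown-labelled library and the other 3 stood within their range. ND6, a membrane subunit, had counts of 10, 7, 12, 12, 10 and 15 in control replicates 1 to 6. In the knockdown-labelled libraries it had 9, 8, 6, 12, 12 and 1. The count of 1 in replicate 6 was the lowest of any member in any library, and the remaining libraries of that group lay at 6 to 12.

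Complex IV, cytochrome c oxidase, passes electrons to oxygen, and COX1, COX2 and COX3 form its core. COX1, which holds the haems and a copper centre where oxygen is reduced, had 17 to 31 counts in control (median 21) and 17 to 32 in the knockdown-labelled libraries (median 26.5). COX2, which accepts electrons from cytochrome c, had 4 to 16 counts (median 10.5) and 7 to 13 counts (median 10), the count of 4 being in control replicate 3. COX3, a structural core subunit, had 9 to 15 counts (median 12.5) and 8 to 16 counts (median 10.5). The 3 genes together had a control mean of 22.98 ± 3.29 CPM and a mean of 23.82 ± 2.67 CPM in the knockdown-labelled libraries, and the 5 complex I members means of 44.47 ± 6.07 and 41.94 ± 4.44 CPM (SD, n = 6 each). Both differences were smaller than the spread within a group.

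CYTB is cytochrome b, the one mitochondrially encoded subunit of complex III, which links the quinone pool to cytochrome c. It had 13 to 22 counts in control (median 16) and 10 to 24 in the knockdown-labelled libraries (median 15.5). ATP6 forms part of the proton channel of the ATP synthase, complex V. Its counts were 6 to 14 in control (median 11) and 5 to 16 in the knockdown-labelled libraries (median 10.5). In both genes the range of the knockdown-labelled libraries enclosed that of control.

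**Figure D1:**
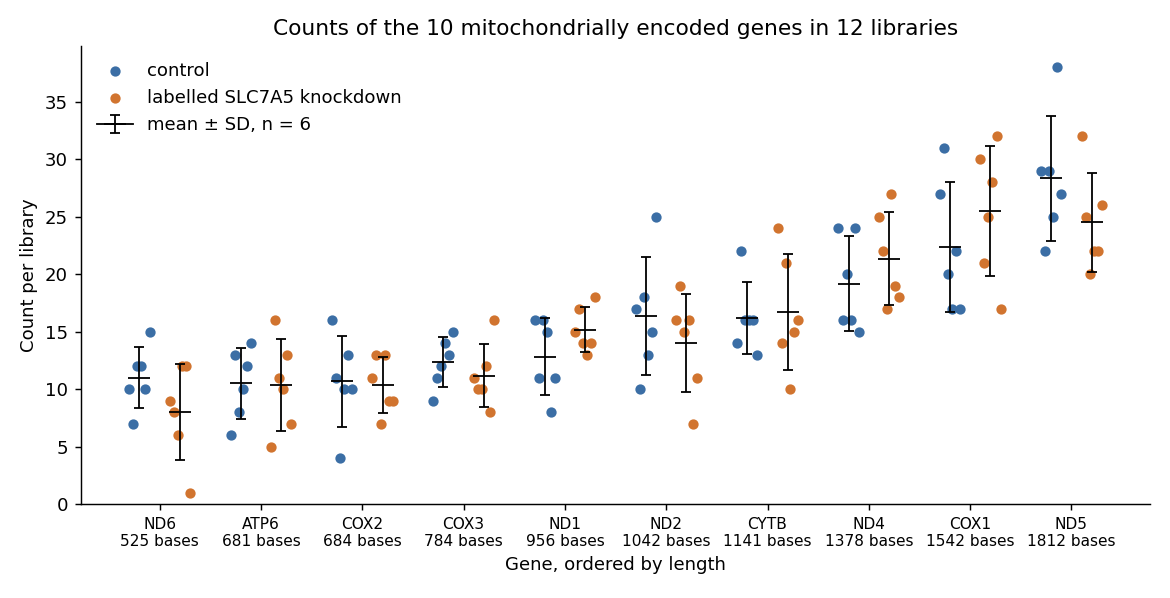
Counts per library (y axis) of the 10 genes, ordered by length (x axis), in 6 control libraries (blue) and 6 libraries labelled SLC7A5 knockdown (orange), with the mean and SD in black. Counts rise with gene length from ND6 to ND5, the groups overlap in every gene, and 1 ND6 library stands at a count of 1.

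The counts followed the length of the genes. Ordered by mean count over the 12 libraries, the 10 members stood in exactly the order of their length, from ND6 (9.5 counts, 525 bases), ATP6 (10.42 counts, 681 bases) and COX2 (10.5 counts, 684 bases) up to ND4 (20.25 counts, 1378 bases), COX1 (23.92 counts, 1542 bases) and ND5 (26.42 counts, 1812 bases). Across the 10 genes, which share libraries and are not independent replicates, Pearson's r between mean count and length was 0.994. Over all 37 mitochondrial genes it was 0.997, and Spearman's rho was 0.79. Counts of nuclear genes in the same table also rose with the length of their exons (Spearman's rho 0.801 over 17094 protein-coding genes).

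**Figure D2:**
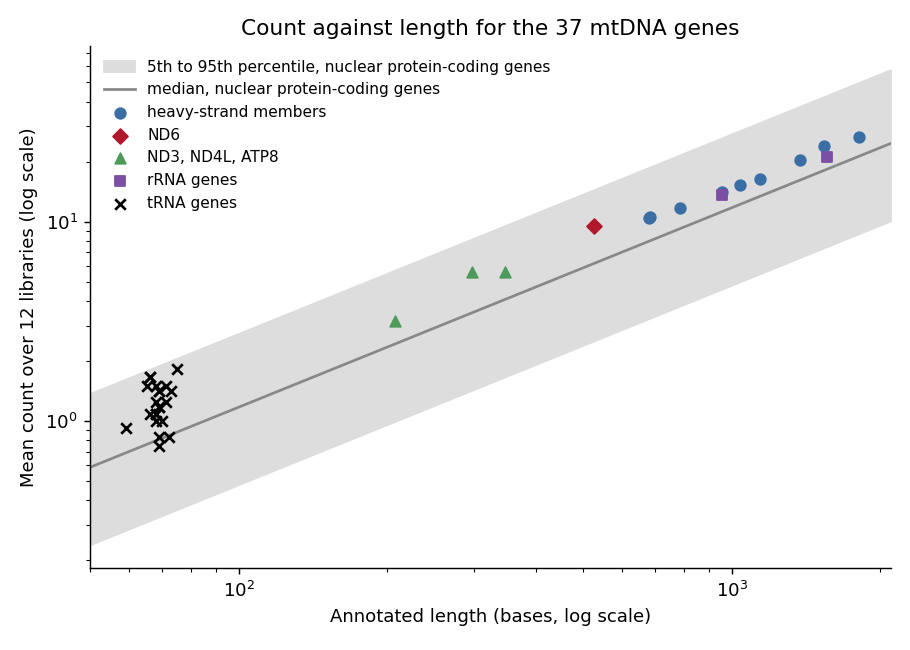
Mean count over 12 libraries (y axis, log scale) against annotated length in bases (x axis, log scale) for the 37 mitochondrial genes, with the median (line) and the 5th to 95th percentile (band) of nuclear protein-coding genes at the same length. Protein genes, rRNAs and tRNAs lie along the nuclear line and within or close to its band, and the members lie a little above the line.

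Per kb of gene the members were close to each other. The mean over the 12 libraries was 18.1 ± 7 counts per kb for ND6, 15.5 ± 3.7 for COX1, 15.4 ± 4.6 for COX2, 15.3 ± 5 for ATP6 and 15 ± 3.1 for COX3 (SD, n = 12). It was 14.7 ± 2.9 for ND4, 14.6 ± 3 for ND1, 14.6 ± 4.5 for ND2, 14.6 ± 2.8 for ND5 and 14.4 ± 3.5 for CYTB. No neighbours in this order differed by more than their spread between libraries. The median nuclear protein-coding gene stood at 11.73 counts per kb of exon, with the 5th and 95th percentiles at 4.8 and 27.52. The heavy-strand members thus lay between the 78.6th percentile (CYTB) and the 83.0th (COX1) of nuclear genes, and ND6 at the 88.0th. The mean of every member stood above the nuclear median of 11.73 and below the 95th percentile of 27.52 counts per kb. A list of 12 nuclear housekeeping genes, GAPDH and ACTB among them, centred on 8.1 counts per kb. Nuclear lengths joined the exons of all annotated transcripts of a gene, whereas each mitochondrial gene has a single unspliced length. A joined length can exceed that of any single transcript, which lowers nuclear counts per kb. How far this shifts the percentiles and contrasts given here was not tested.

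The rRNA and remaining protein genes of mitochondrial DNA had 13.5 to 18.8 counts per kb, and the tRNA genes, which rest on few counts, 10.9 (TRNS1) to 25.3 (TRNC and TRNY). ND3, ND4L and ATP8, small subunits of complexes I and V, had 16.1, 18.8 and 15.3 counts per kb. With 2 to 9, 0 to 10 and 2 to 6 counts per library they were too low for the test. The rRNAs of the mitochondrial ribosome stood at 14.3 (RNR1) and 13.5 (RNR2) counts per kb, in the range of the mRNAs, although rRNA as a rule outnumbers mRNA in mitochondria. Their log2 fold changes were 0.14 and 0.03, each with an adjusted p of 0.998 in edgeR. The 22 tRNA genes, whose RNAs end in CCA and carry no poly(A) tail, held 27.7 ± 3.1 counts together in control and 27 ± 3.7 in the knockdown-labelled libraries (SD, n = 6 each). No tRNA gene had more than 4 counts in a library, and 21 had 0 counts in at least 1 library. Pooled, the tRNA genes gave 18.1 counts per kb and library, against 15 for the members and 13.8 for the rRNAs.

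**Figure D3:**
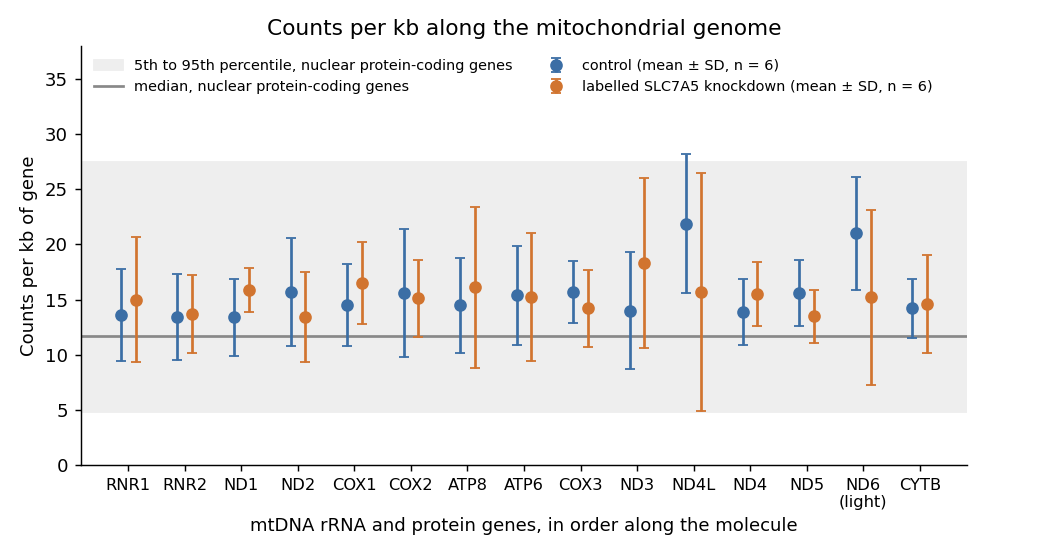
Counts per kb of gene (y axis, mean ± SD over 6 libraries) for the rRNA and protein genes in their order along the molecule (x axis), in control (blue) and in libraries labelled SLC7A5 knockdown (orange), over the median and the 5th to 95th percentile of nuclear protein-coding genes (grey). Every mean lies between 13.4 and 21.9 counts per kb, above the nuclear median and within the band.

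The light-strand gene ND6 had more counts per kb than the 9 heavy-strand members pooled in 8 of 12 libraries. Outside that pool, the heavy-strand gene ND4L stood at 18.8 counts per kb over the 12 libraries, ND3 at 16.1 and ATP8 at 15.3, against 18.1 for ND6. In control ND6 had 21 ± 5.1 counts per kb against 14.8 ± 0.9 for the 9 heavy-strand members pooled, a ratio of 1.42 ± 0.39 (SD, n = 6), and the ratio was above 1 in 5 of 6 libraries. In the knockdown-labelled libraries it had 15.2 ± 7.9 against 14.9 ± 1.2 counts per kb, a ratio of 1.02 ± 0.54, above 1 in 3 of 6. Control replicates 1 to 6 had ratios of 1.21, 0.91, 1.6, 1.68, 1.19 and 1.95. These rest on 7 to 15 ND6 counts per library. The exact 95% Poisson interval was 2.81 to 14.42 counts for the lowest (replicate 2) and 8.4 to 24.74 for the highest (replicate 6). The libraries labelled knockdown had 1.02, 0.97, 0.82, 1.52, 1.65 and 0.14. The low value belongs to replicate 6, where 138 heavy-strand counts stood beside 1 count of ND6, which has an exact 95% Poisson interval of 0.03 to 5.57 counts. Without that library the mean ratio was 1.19 ± 0.36 (n = 5).

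As a share of the heavy-strand counts, ND6 stood at 7.45% ± 2.02 in control (4.76% to 10.2%) and at 5.34% ± 2.83 in the knockdown-labelled libraries (0.72% to 8.63%; SD, n = 6 each). The difference of -2.12 percentage points was smaller than the larger SD. Leaving out replicate 6 of the knockdown-labelled libraries gave a mean of 6.26% ± 1.91 (n = 5). The 8 tRNA genes annotated on the same strand as ND6 had 18.1 counts per kb and library pooled, as did the 14 on the other strand. The strand setting was not given in the sources used here. Without one, reads of ND6 and reads of the heavy-strand RNA opposite to it cannot be told apart, nor can those of the other mitochondrial genes and their opposite strands.

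**Figure D4:**
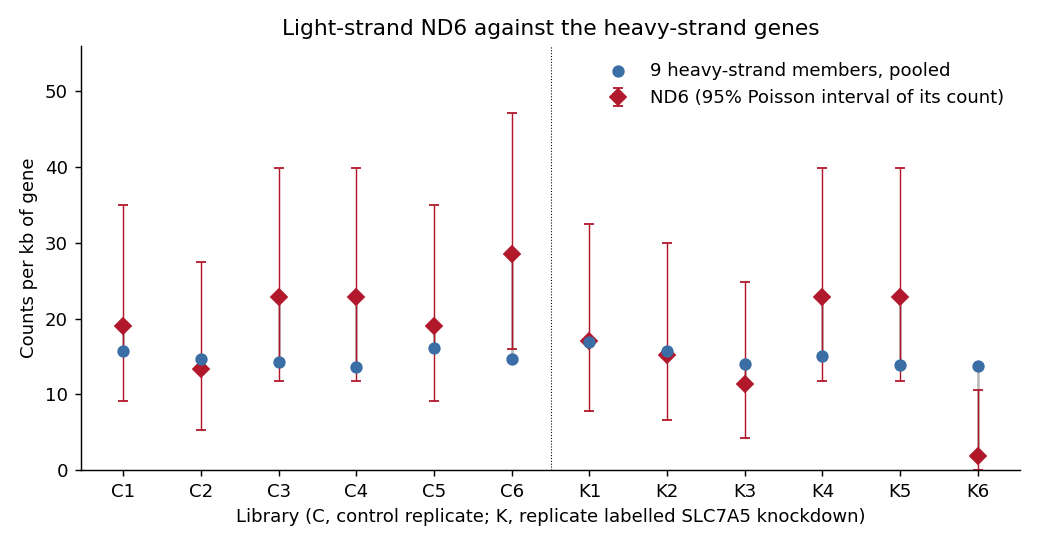
Counts per kb (y axis) of ND6 (red, with the exact 95% Poisson interval of its count) and of the 9 heavy-strand members pooled (blue) in each library (x axis; C, control replicate; K, replicate labelled SLC7A5 knockdown). ND6 lies above the pooled genes in 8 of 12 libraries, and K6 has 1.9 counts per kb of ND6 against 13.8.

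Between the groups, edgeR's quasi-likelihood test called 0 of the 10 members at an adjusted p under 0.05, and 0 had an unadjusted p under 0.05. Over all 35754 features tested, 0 were called higher or lower (0%), and 4.58% had an unadjusted p under 0.05. In 0 of the 10 members did the groups not overlap in CPM, against 0.185% of all features. All 10 members passed the filter on low counts. The log2 fold change was above 0 in 4 of them and below 0 in 6, and its median was -0.04, against -0.001 over all features. The signs of COX2, CYTB and ATP6 changed with the library left out. The median absolute log2 fold change was 0.17 over the members and 0.14 over the 13885 features in the same range of abundance.

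By log2 fold change, ND6 had the largest difference of the members, while in CPM that of ND5 (14.39 in control against 12.39) and that of COX1 (11.33 against 12.94) were larger. ND6 had a control mean of 5.57 ± 1.3 CPM and a mean of 4.05 ± 2.15 CPM in the knockdown-labelled libraries (SD, n = 6 each), a fold of 0.73 with a 95% interval of 0.47 to 1.13. Its edgeR log2 fold change was -0.46 (standard error 0.31), with an adjusted p of 0.998 in edgeR, and the exact two-sided permutation test of CPM gave p = 0.162. Without replicate 6 of the knockdown-labelled libraries the log2 fold change was -0.235. ND1 had the most positive value, at 6.52 against 7.68 CPM, a fold of 1.18 (95% interval 0.87 to 1.6). COX1 had a fold of 1.14 (0.88 to 1.48), ND4 1.11 (0.86 to 1.44) and CYTB 1.03 (0.77 to 1.38). ND2 stood at 0.86 (0.62 to 1.18), ND5 at 0.86 (0.69 to 1.08), COX3 at 0.91 (0.65 to 1.27), COX2 at 0.97 (0.67 to 1.4) and ATP6 at 0.98 (0.67 to 1.44). For 9 of the 10 genes, all but ND6, the interval lay within a 2-fold difference in either direction. 

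**Figure D5:**
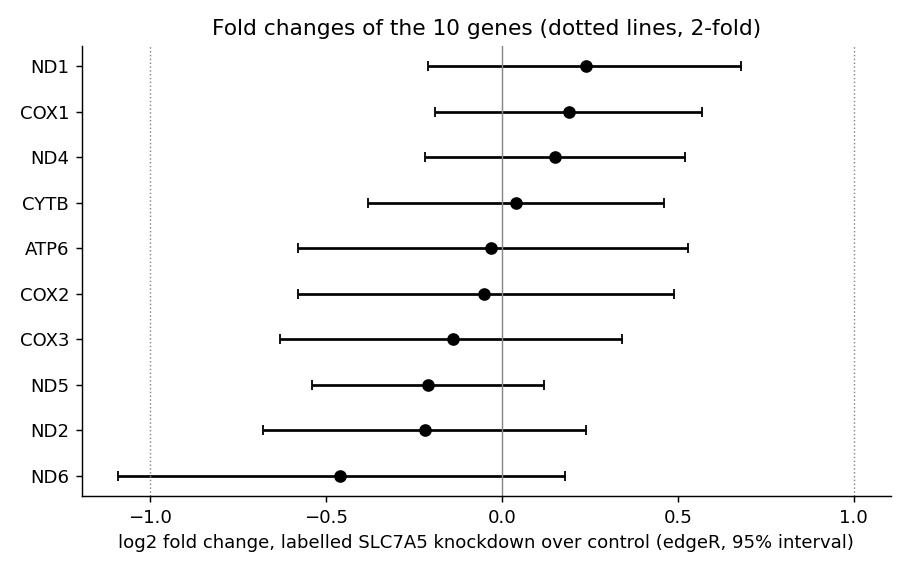
Log2 fold change of the libraries labelled SLC7A5 knockdown over control (x axis) for the 10 genes (y axis), with 95% intervals from edgeR and dotted lines at 2-fold. All intervals cover 0, and that of ND6, from -1.09 to 0.18, is the widest.

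Across libraries no common movement of the members was seen. Over the 45 pairs of members, Pearson's r of log2 CPM across the 12 libraries had a median of -0.09 and a range from -0.71 (COX1 with COX3) to 0.42 (ND4 with COX1), and 19 pairs were positive. The variance of the counts over their mean, which is about 1 for counting noise alone, had a median of 0.97 over the members (0.5 for COX3 to 1.44 for ND2), against 1.15 over all features tested. The spread of these genes between libraries was thus near that of counting, so the correlations cannot tell whether their RNAs vary together. Among 35745 features, MAP2K6-AS1, LRRC46, ARNT2-DT, MYBL1 and PANTR1 were most like the summed heavy-strand members over the 12 libraries, with r from 0.87 to 0.94. Most like ND6 were LOC105375899, CSN2, TSEN54, SAP25 and LOLI1, with r from 0.92 to 0.94. With 12 libraries and so many features these values are a description only.

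The respiratory complexes also need subunits encoded in the nucleus, which must be made in step with the mitochondrial ones. Of 77 nuclear genes of complexes I to V with a row, complex II included, 50 were tested. In edgeR 0 of them passed in either direction, as over all features (0%). At an unadjusted p under 0.05 the count was also 0, against 4.58% of all features tested. The nuclear genes had a median log2 fold change of -0.002 and a median level of 6.82 counts per kb of exon (quartiles 3.73 and 11.11). That level lay below each of the 10 mitochondrial members, under the unlike lengths described above. Complex I had 22 tested subunits with a median log2 fold change of 0.002. NDUFB4, an accessory subunit, had a control mean of 8.09 ± 1.96 CPM and a mean of 10.44 ± 1.78 CPM in the knockdown-labelled libraries, and NDUFS7, which carries an iron-sulphur cluster, means of 14.49 ± 3.41 and 17.28 ± 1.24 CPM (SD, n = 6 each). The 3 tested subunits of complex II, which has no mitochondrially encoded part, had a median of 0.133, with SDHC at 0.18 and SDHD at 0.13. Without knockdown-labelled replicate 3, SDHC stood at 0.03 and SDHD at 0. Complex III (9 genes) had a median of -0.116. Its UQCRB stood at 60.45 ± 8.35 and 53.7 ± 2.01 CPM, and UQCR11 at 9.74 ± 2.32 and 7.97 ± 2.14 CPM. Complex IV (5 genes) had a median of 0.107, with COX5A at 0.27 and COX6C at -0.29. Complex V (11 genes) had a median of 0.011, with ATP5PF at -0.23 and ATP5F1C, a stalk subunit, at 0.43. Control replicate 6 had 0 counts of ATP5F1C, and without it the value was 0.16.

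Genes that copy, process and translate mitochondrial RNA gave 0 calls as well. The 14 genes of mitochondrial transcription and replication had a median log2 fold change of 0.006. TWNK, the helicase of mitochondrial DNA, had a control mean of 27.02 ± 4.43 CPM and a mean of 23.05 ± 2.86 CPM in the knockdown-labelled libraries, and POLG2, a subunit of its polymerase, means of 36.72 ± 4.46 and 40.8 ± 5.32 CPM (SD, n = 6 each). The 18 tested genes of mitochondrial RNA processing and stability had a median of -0.017. FASTK, of which a mitochondrial form is known to be needed for ND6 mRNA, stood at 18.9 ± 5.27 and 13.45 ± 2.69 CPM, a log2 fold change of -0.49 (standard error 0.18). Its unadjusted p was 0.00988 and its adjusted p 0.998 in edgeR. It was the 1 gene of these 18 with an unadjusted p under 0.05, against 4.58% of all features tested. The housekeeping gene PPIA (0.00297) and the leukocyte marker MS4A1 (0.00781) had smaller unadjusted p in edgeR. A link between the FASTK and ND6 counts was not tested. TRMT10C, a part of the enzyme that cuts tRNAs at their front end, stood at 12.3 ± 3.07 and 9.51 ± 2.42 CPM. The 34 mitochondrial ribosomal proteins tested had a median of -0.034, with MRPS15 at -0.64 and MRPS35 at 0.1, and MRPS15 stood at -0.38 without replicate 6 of the knockdown-labelled libraries. The 8 regulators of mitochondrial biogenesis had a median of -0.029, with PPARGC1B at 0.09 and NRF1 at 0.15. Adjusted p was 0.998 in edgeR for each gene named in these lists.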

How the data were processed

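Per the labels, RNA of A549 cells was sequenced from oligo-dT libraries, and 1 batch label covers all 12 samples. The authors deposited whole-number counts per feature and library, analysed here as raw counts. The submitters' processing notes name Bowtie2, RSEM 1.3.1, DESeq2 1.4.5 and GRCh38 with no role for each. Annotation, strand setting and rounding are not given in the sources used here. RSEM as a rule gives estimated counts, which can divide reads between similar genes. Of 474 RefSeq symbols of nuclear copies of mitochondrial genes, 0 matched a row used here, so reads that fit both cannot be apportioned, and their effect on the members' counts was not tested.

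Columns were matched to samples by name. Members, lists and alternatives were chosen with earlier results of these data known. Groups were compared over all features in R 4.3.3 with the quasi-likelihood test of edgeR 4.0.16 (filterByExpr, TMM, robust fit), checked on simulated data, with Benjamini-Hochberg adjustment at 0.05. Standard errors and 95% intervals were derived from its p-values. DESeq2 1.42.0 and limma 3.58.1 (voom) were alternatives. CPM used library totals. Coordinates and lengths of mitochondrial genes are those of RefSeq (GRCh38.p14), with the same positions in GENCODE release 29. Nuclear lengths are unions of GENCODE exons. Pairs of libraries differed little beyond counting noise in 26023 features whose mean count reached 20 (chi-square per degree of freedom 1.236 to 1.32 within and 1.239 to 1.324 between groups). The ranges within and between groups were thus alike. Whether libraries of a group are technical repeats was not tested, and none was merged.

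Named genes were the members, the other mitochondrial genes, SLC7A5, the 2 genes of each list with the smallest p and the 5 features most like each pattern. GAPDH and ACTB were added as familiar members of their list, outside this rule.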

Additional observations from a re-analysis of the deposited data

Results flagged for a closer look

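The mitochondrial mRNAs and rRNAs, their sums and the named nuclear genes were searched for a library that stood apart from the rest of its group, over 98 groups of 6. Of these, 4 had one, where chance gives about 4.9, and 0 of the 10 members did. ATP5F1C, a nuclear ATP synthase subunit, stood at 0 CPM in control replicate 6 against 7.25 to 8.36 CPM in the other controls. TWNK, the mitochondrial helicase, stood at 18.67 CPM in control replicate 2 (others 26.64 to 30.59), and PPARGC1B, a coactivator of mitochondrial biogenesis, at 66.31 CPM in control replicate 3 (others 75.68 to 80.96). KDR, an endothelial receptor, stood at 45.03 CPM in replicate 2 of the knockdown-labelled libraries (others 36.11 to 38.73).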

How the results depend on the processing

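Under all 21 other fits 0 members were called, and the smallest adjusted p of a member was 0.976. Of 210 recomputed member log2 fold changes, 12 changed sign, all in COX2, CYTB and ATP6. COX2 moved from -0.048 to 0.025 in limma voom. Over single libraries left out, COX2 lay between -0.21 and 0.099, CYTB between -0.084 and 0.15, and ATP6 between -0.17 and 0.12. Causes were not tested. ND6 had -0.666 in limma voom and -0.615 to -0.235 with single libraries left out. Over all features 1 was called in DESeq2, 1 in limma voom, and 0 to 2 with single libraries left out (2 without control replicate 4). With the replicate block the ND6 value was -0.466 and 0 features were called. Same-numbered libraries correlated at -0.015 to 0.027 in their deviations, and 2 of 12 correlated best with their own number. The libraries differed little beyond counting noise, so these values cannot tell whether the numbers pair the samples. The difference in summed member level lay between -3.29 and -0.21 CPM with single libraries left out. At 1 to 38 counts per member and library, the 95% interval of the log2 fold change was narrowest for ND5 (-0.54 to 0.12) and widest for ND6 (-1.09 to 0.18).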

Other observations

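The marker and housekeeping lists also held 0 genes called in edgeR. Their genes with the smallest p had adjusted p of 0.998 in edgeR. The log2 fold changes were -0.38 for KRT19 and 0.25 for ALDH3A1 (A549 and lung epithelium), 0.42 for MS4A1 and -0.15 for PTPRC (leukocytes), and 0.11 for CDH5 and 0.03 for KDR (endothelium). They were 0.2 for PDGFRB and 0.31 for LUM (fibroblasts), and 0.07 for FGB and 0.01 for ALB (liver). With single libraries left out KDR reached -0.03 (without knockdown-labelled replicate 2), and ALB -0.1 and FGB 0 (without knockdown-labelled replicate 3). The housekeeping genes PPIA, a prolyl isomerase, and TUBA1B, a tubulin, stood at -0.45 and -0.36. PPIA went from 22.92 ± 3.77 CPM in control to 16.71 ± 2.66 CPM in the knockdown-labelled libraries (SD, n = 6 each).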
